A study of Mus musculus with 6 samples.

Results

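Low-ranked KO-only peaks inside genes are accessible sites that were listed for Bcl11b-deficient regulatory T cells (Treg cells), late in the list and away from gene ends, and for which the list of Bcl11b-sufficient Treg cells had no counterpart. They numbered 2445 of the 36182 KO peaks (6.76%, exact 95% interval 6.50 to 7.02%). A peak was taken when it stood in the last 50% of the rows of the KO list, when no WT peak lay within 500 bp, when its midpoint fell inside a protein-coding gene, and when it was more than 1 kb from both ends of every protein-coding gene. These values chose the peaks, so the absence of a WT peak, the late place in the list and the location in gene bodies are a description and not a result. All 2445 peaks are 193 bp wide and together cover 472 kb, while the usual width in the WT list is 219 bp.

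The peaks come from ATAC-seq, in which a transposase cuts and tags open chromatin. The KO group held 3 samples of the genotype Bcl11b f/f Foxp3-IRES-YFP-Cre and the WT group 3 samples of Bcl11b w/w Foxp3-IRES-YFP-Cre, all on C57BL/6 and all sorted as CD4+YFP+ cells from spleen and draining lymph nodes, with 100000 cells lysed per sample. YFP and Cre are driven by Foxp3 in both groups, so deletion is driven in Foxp3-expressing cells, and the WT cells carry the same Cre. Each group had 1 list of peaks for its 3 samples, so no value per sample, no spread between replicates and no test across replicates could be had. The labels give neither the age and sex of the mice nor the deleted exons, so the lists do not check the deletion of Bcl11b. A site absent from a list was not called there, which does not mean that it was closed.

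Treg cells restrain immune responses under the control of the transcription factor Foxp3, and Bcl11b is a zinc-finger factor that holds T cells to their lineage. Accessible sites inside genes are often enhancers, which may act on the gene that holds them or on another one, and some are start sites of shorter transcripts. Peak callers often sort a list by peak strength. Here the order is taken as a rank, which the labels do not state, and every row carries the same score of 1, so peak height is unknown.

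At the limits of the rule, the first peaks inside the rank limit were in Adnp (row 18097), Mbnl1 (row 18099) and Pdzk1 (row 18101), and the last ones left out were in Gm7247 (row 18035), Mbd2 (row 18060) and 1700025G04Rik (row 18075). The last rows taken were 36176 in Cdk5rap3, 36177 in Prkar2b and 36178 in Lrrc9. The peaks nearest to a WT peak were in Sik3 and Asap1, at 502 and 503 bp, and those left out by the smallest margin were in Tcf4 and Plxdc2, at 493 and 492 bp. The most distant ones were in Sorcs1 and Cntn3, 1235769 and 1124897 bp from any WT peak. The limit at gene ends fell between peaks of Alad (1002 bp) and Slc38a7 (1006 bp) on the inside and peaks of Shroom3 and of the overlapping genes Recql5 and Smim5 (1000 bp each) on the outside.

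A small part of the peaks touched a window around an annotated transcription start inside the gene. RefSeq start windows, which run from 250 bases before to 50 bases after an annotated start (GRCm38.p6, with the same coordinates as mm10), were overlapped by 57 of the 2445 peaks, and 36 of these touched the window of an internal start of their own host gene. An overlap of 1 base was enough, so a peak may touch a window without covering the start itself. Printed below are the start windows of host genes that hold a whole KO-only peak, for the peaks that come first in row order, leaving out Zfp984 with its near-identical copies, and the window of a lncRNA gene inside Cd244a. Capitals mark the bases under the KO-only peak, and each sequence reads 5′ to 3′ on the strand of the gene.
Fcgr3, chr1:171059345-171059644, minus strand: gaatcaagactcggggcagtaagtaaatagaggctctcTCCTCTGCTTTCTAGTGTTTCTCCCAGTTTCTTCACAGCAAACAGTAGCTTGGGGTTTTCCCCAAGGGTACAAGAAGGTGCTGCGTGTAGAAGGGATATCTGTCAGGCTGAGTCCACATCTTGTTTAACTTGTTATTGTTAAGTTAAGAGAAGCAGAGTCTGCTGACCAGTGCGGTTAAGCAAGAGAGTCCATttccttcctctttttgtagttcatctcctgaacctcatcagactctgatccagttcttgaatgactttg
Prkcz, chr4:155345740-155346039, minus strand: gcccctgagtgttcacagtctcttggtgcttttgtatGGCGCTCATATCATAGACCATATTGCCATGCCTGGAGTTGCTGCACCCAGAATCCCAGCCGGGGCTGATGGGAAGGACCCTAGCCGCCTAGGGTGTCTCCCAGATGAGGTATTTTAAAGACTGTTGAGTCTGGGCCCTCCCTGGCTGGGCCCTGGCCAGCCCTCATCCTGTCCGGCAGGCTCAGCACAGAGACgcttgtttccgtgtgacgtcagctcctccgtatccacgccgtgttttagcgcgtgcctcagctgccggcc
Arhgap25, chr6:87496278-87496577, minus strand: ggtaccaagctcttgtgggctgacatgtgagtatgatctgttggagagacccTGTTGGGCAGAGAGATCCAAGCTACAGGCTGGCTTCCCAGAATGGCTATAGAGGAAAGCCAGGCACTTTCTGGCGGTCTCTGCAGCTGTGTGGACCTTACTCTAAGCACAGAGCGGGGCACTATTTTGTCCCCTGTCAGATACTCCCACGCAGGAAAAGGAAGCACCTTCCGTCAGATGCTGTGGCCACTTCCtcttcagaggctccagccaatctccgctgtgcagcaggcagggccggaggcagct
Rreb1, chr13:37826662-37826961, plus strand: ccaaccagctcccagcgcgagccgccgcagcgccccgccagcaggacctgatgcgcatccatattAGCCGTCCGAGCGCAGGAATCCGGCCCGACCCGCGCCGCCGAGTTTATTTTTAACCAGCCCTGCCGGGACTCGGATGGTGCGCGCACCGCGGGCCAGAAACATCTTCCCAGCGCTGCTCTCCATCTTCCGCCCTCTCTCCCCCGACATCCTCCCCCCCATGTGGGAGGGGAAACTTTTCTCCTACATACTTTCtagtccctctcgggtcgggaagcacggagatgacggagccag
Cyth1, chr11:118212682-118212981, minus strand: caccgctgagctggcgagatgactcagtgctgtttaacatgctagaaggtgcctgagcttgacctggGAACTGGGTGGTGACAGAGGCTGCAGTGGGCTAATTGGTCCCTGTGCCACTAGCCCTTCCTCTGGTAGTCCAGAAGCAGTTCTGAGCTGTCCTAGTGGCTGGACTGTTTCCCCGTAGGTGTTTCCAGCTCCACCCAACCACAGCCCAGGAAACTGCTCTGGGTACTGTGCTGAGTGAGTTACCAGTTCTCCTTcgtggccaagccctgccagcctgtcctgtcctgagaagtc
Steap3, chr1:120258829-120259128, minus strand: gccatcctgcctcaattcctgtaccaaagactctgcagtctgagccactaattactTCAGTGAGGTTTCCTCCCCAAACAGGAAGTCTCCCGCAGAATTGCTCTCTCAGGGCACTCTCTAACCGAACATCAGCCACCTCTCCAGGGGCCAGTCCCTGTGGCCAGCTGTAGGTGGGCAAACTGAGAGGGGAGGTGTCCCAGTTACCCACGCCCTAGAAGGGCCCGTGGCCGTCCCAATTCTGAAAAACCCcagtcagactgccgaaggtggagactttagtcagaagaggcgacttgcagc
Cd80, chr16:38458683-38458982, plus strand: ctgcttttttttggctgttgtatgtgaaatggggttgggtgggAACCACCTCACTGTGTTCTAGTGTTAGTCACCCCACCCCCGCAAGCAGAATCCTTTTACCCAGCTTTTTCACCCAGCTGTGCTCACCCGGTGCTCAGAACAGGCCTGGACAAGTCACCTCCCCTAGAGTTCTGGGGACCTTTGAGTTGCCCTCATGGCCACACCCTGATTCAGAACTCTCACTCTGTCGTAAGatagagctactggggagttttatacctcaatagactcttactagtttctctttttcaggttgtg
Gm35200 in Cd244a, chr1:171562024-171562323, minus strand: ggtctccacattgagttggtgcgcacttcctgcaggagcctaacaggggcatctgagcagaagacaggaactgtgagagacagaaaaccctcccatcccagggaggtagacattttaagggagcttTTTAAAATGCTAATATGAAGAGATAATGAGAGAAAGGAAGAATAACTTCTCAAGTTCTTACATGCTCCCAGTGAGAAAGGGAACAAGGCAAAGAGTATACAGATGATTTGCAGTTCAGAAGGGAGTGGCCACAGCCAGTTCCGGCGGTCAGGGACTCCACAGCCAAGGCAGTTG

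The host genes of these windows have different roles. Fcgr3 encodes a low-affinity receptor for IgG on NK and myeloid cells, and the peak at chr1:171059414-171059606 lay just upstream of its internal start, 0.903 kb from the nearest WT peak. Fcgr3 held a second such peak and no low-ranked WT-only peak. With a gap of 1000 bp, and likewise with the last 40% of rows, KO-only minus WT-only peaks at Fcgr3 were 0. Prkcz encodes an atypical protein kinase C and held 4 low-ranked KO-only peaks against 0 WT-only peaks of the same kind. Cd80 encodes a ligand of the receptors CD28 and CTLA-4 and held 2 against 0, with no peak at its gene ends in either list. Steap3, which encodes a ferrireductase, held 1 against 0.

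At the remaining genes of these windows WT-only peaks were as many or more. Cyth1, encoding an exchange factor for ARF GTPases, held 2 KO-only and 2 WT-only peaks. Arhgap25, encoding a GTPase-activating protein for Rac, held 1 and 1, and the zinc-finger factor gene Rreb1 held 1 and 2. Cd244a, which encodes the NK cell receptor 2B4, also held 2 and 2, and both of its KO-only peaks lay within 1 kb of each other, at chr1:171561241-171561433 and at the start of Gm35200.

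The window of an internal start of the host gene was touched by a small share of each kind of peak. It was touched by 1.47% of the KO-only peaks (36, exact 95% interval 1.03 to 2.03%), by 2.52% of the low-ranked KO peaks inside genes that a WT peak overlapped (124 of 4930, 2.096 to 2.99%), and by 1.04% of the low-ranked WT-only peaks inside genes chosen by the same rule in the WT list (41 of 3947, 0.746 to 1.41%). Start windows of lncRNA genes were touched by 0.859%, 0.690% and 0.431% of the same sets, with intervals of 0.532 to 1.31%, 0.478 to 0.962% and 0.251 to 0.689%. The share inside any lncRNA gene was 5.73% for KO-only, 5.58% for shared and 5.83% for WT-only peaks. The intervals cover counting error only, and no test of these differences was made.

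The windows under KO-only peaks were searched for 20 short motifs on both strands. The 57 peaks touched 64 windows, some of them overlapping windows of 1 gene, so they are not independent. CAGGAAG, a core of ETS factors, was present in 18 of the 64 windows (28.1%, 17.6 to 40.8%), in 16.6% of the 175 windows under low-ranked shared KO peaks and in 6.25% of the 64 windows under low-ranked WT-only peaks. It was present in 13.3% of all 32851 windows. GGTGTGA, a core of T-box factors, was present in 7 of the 64 windows (10.9%, 4.51 to 21.2%), in 6.29% under shared peaks, in 1.56% under WT-only peaks and in 3.98% of all windows. CAGGTG, an E-box, stood in 8 of the 64 windows under KO-only peaks, in 28.0% under shared peaks, in 21.9% under WT-only peaks and in 20.2% of all windows. CTTTGAA, the TCF/LEF core, stood in 0 windows under KO-only peaks (0 to 5.601%), in 5.71% under shared peaks, in 0 under WT-only peaks and in 5.14% of all windows. The AP-1 core TGANTCA stood in 10.9% of the windows under KO-only peaks and in 7.81% of all windows, and CCCCNCCC, the KLF/SP core, in 34.4% and 33.2%.

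The RUNX core TGTGGTT stood in 4 of the 64 windows, the NF-kB core GGGNNTTCC in 5, the STAT core TTCNNNGAA in 4, the GATA core AGATAA in 5 and the FOX core GTAAACA in 1. The E-box CAGCTG stood in 20.3% of the windows under KO-only peaks, in 21.1% under shared peaks, in 20.3% under WT-only peaks and in 16.3% of all windows. The NFAT core TGGAAA stood in 15.6%, 13.7%, 23.4% and 21.4% of these sets, and the CTCF core CCCTCTNG in 10.9%, 12.6%, 10.9% and 6.23%. The MAF core TGCTGAC stood in 6 of the 64 windows and TAATTA, a homeobox core, in 4. IRF and NR4A (AAAGGTCA) cores stood in 1 window each, and ROR (TAGGTCA) and CRE (TGACGTCA) cores in 2 each. In the printed windows, NF-kB and MAF cores were found in that of Fcgr3 and AP-1, RUNX and NFAT cores in that of Cyth1. An AP-1 core was found in that of Cd80, an ETS core in that of Steap3 and ETS and GATA cores in that of Gm35200. The AP-1 match of Cyth1 and the ETS match of Gm35200 lay outside the KO-only peak, and the ETS match of Steap3 lay under it. A match says only that these letters are in the window, which is longer than the peak. The median GC content was 56.5% under KO-only peaks, 59.0% under shared peaks, 58.0% under WT-only peaks and 52.7% over all windows.

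Of the 2445 peaks, 4 covered a miRNA hairpin wholly or in part (0.164%, 0.0446 to 0.418%), against 1 of 4930 low-ranked shared KO peaks and 0 of 3947 low-ranked WT-only peaks. MicroRNAs are cut from such hairpins and pair with their targets through the seed, bases 2 to 8, shown in capitals for the mature forms in RefSeq (GRCm38.p6).
mmu-miR-6546-5p: aGGCGCCUcugagcuugugcuugu
mmu-miR-6546-3p: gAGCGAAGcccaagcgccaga
mmu-miR-3075-3p: aUCCUUGGccuuccuaggugu
mmu-miR-138-5p: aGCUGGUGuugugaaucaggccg
mmu-miR-138-2-3p: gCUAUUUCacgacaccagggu
mmu-miR-361-5p: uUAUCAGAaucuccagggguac
mmu-miR-361-3p: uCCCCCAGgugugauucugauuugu
No seed is shared between these forms. The peak in Nup93, which encodes a nuclear pore protein, covered all 71 bases of the Mir138-2 hairpin (chr8:94324311-94324381), and the peak in Zmiz1 covered all 85 bases of Mir3075 (chr14:25534439-25534523). In Fcgr3, 44 of the 62 bases of Mir6546 were covered by the second peak of that gene, at chr1:171064442-171064634. In Chm on the X chromosome, 16 of the 70 bases of Mir361 were covered. Whether these miRNAs were transcribed was not measured.

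The 2445 peaks were spread thinly over many genes. They lay in 1880 of the 19304 protein-coding genes longer than 2 kb (9.74%), of which 1482 held a single peak and 398 (2.06% of the genes) held 2 or more. The low-ranked WT-only peaks inside genes numbered 3947 and lay in 2665 genes (13.8%). Both kinds were present in 694 genes, which is 36.9% of the genes with KO-only and 26.0% of the genes with WT-only peaks. Genes with more KO-only than WT-only peaks of these kinds numbered 1293 (6.7%), and genes with fewer numbered 2219 (11.5%). KO-only peaks exceeded WT-only ones by 4 or more at 14 genes, and the reverse held at 81. The WT list was the longer one, so equal numbers are not the baseline.

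The 15 genes with most of these peaks held 5 or 6 each and were 163 to 792 kb long. Among the genes of the cytoskeleton, Nav2, which encodes a microtubule-associated protein, held 6 KO-only, 2 WT-only and 5 shared low-ranked peaks. Septin9, a member of the septins that form filaments at the cell cortex, held 5, 1 and 3. Fmnl2, a formin that elongates actin filaments, held 5, 3 and 0. With the last 40% of rows in place of 50%, KO-only minus WT-only peaks at Septin9 fell to 0.

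Genes of nuclear proteins formed a second group among these 15. Hdac4, a class IIa histone deacetylase gene of 267 kb, held 5 KO-only, 0 WT-only and 7 shared low-ranked peaks. The related gene Hdac9, of 870 kb, held 0, 13 and 3. The other class IIa genes Hdac5 and Hdac7 held 0, 0 and 0, and 1, 0 and 1. Zmiz1, a PIAS-family co-regulator, held 5, 1 and 2, and its gene ends had a peak in the WT list alone. The zinc-finger genes Hivep3 and Zfp407 held 5, 2 and 4, and 6, 2 and 3.

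Signalling genes were the third group. Itpr1, a calcium channel of the endoplasmic reticulum, held 5 KO-only, 2 WT-only and 4 shared low-ranked peaks, and the difference was -1 with the last 40% of rows. Prkca, a conventional protein kinase C, held 5, 4 and 2, with a difference of 0 in that setting. Chrm3, a muscarinic acetylcholine receptor gene, held 5, 4 and 2 as well, with no peak at its gene ends in either list. Inpp4b, a phosphoinositide phosphatase gene of 792 kb, held 5, 11 and 5, so WT-only peaks were the more numerous kind there. Tbc1d22a, of the family of Rab GTPase-activating proteins, held 5, 1 and 1. Ccdc162, which was placed in none of these groups, held 5, 3 and 4.

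The predicted gene Gm7592 (6, 1 and 8) and the zinc-finger gene Zfp978 (5, 5 and 9) complete the 15. Both lie among genes with similar copies nearby, where reads may map to several places, so their peaks are uncertain. The same may hold for 4930467E23Rik and Gm8369, named next. Besides Hdac4, the genes with 4 or more KO-only and 0 WT-only peaks included 4930467E23Rik, Pnkd, Prkcz, Slc12a8 and Trerf1, which were chosen after their values were seen.

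**Figure D1:**
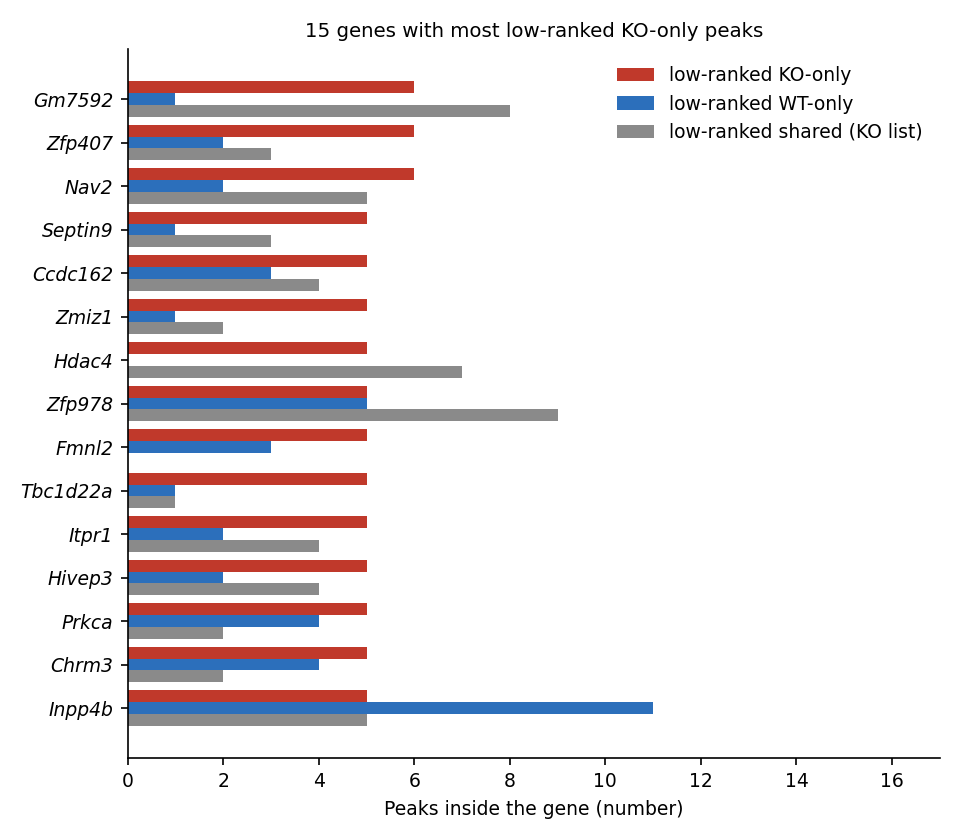
Number of low-ranked peaks inside each of the 15 genes with most low-ranked KO-only peaks, with KO-only peaks in red, WT-only peaks chosen by the same rule in blue and shared peaks of the KO list in grey. Hdac4 has 5 KO-only peaks and 0 WT-only peaks, while Inpp4b has 5 and 11.

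Peaks per length gave another order. Among genes with 3 or more of these peaks, the density was highest at Tbx21, which encodes T-bet, the lineage factor of Th1 cells, with 3 peaks in 17.3 kb (17.3 per 100 kb). Gm8369 followed with 12.7 per 100 kb and 4930467E23Rik with 8.11. Gpr55, a receptor for lysophospholipids, had 4 peaks in 58.4 kb (6.85 per 100 kb), and Blk, a Src-family kinase of B cells, had 3 peaks in 44.4 kb (6.76 per 100 kb). Pnkd had 4 peaks and 0 WT-only ones (5.79 per 100 kb), and Adap1, Rhbdl3, Ggta1, Ilrun, N4bp2 and Prkcz followed with 3.95 to 5.57 per 100 kb. Gpr55, Pnkd, Gm8369 and the genes from Adap1 to N4bp2 were chosen after their values were seen.

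Some of the peaks stood close together. The 3 peaks of Rptor spanned 7.54 kb, the 3 of Tbx21 spanned 10.9 kb, and 3 of the peaks of Septin9 and of Prkca spanned 10.1 and 20.8 kb.

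At 4 of these genes the peaks were placed differently. In Tbx21 (chr11:97098007-97115331) all peaks of the KO list inside the gene were KO-only, at chr11:97101913-97102105, 97104119-97104311 and 97112646-97112838, with another near the upper gene end that the rule leaves out. No WT peak had its midpoint inside Tbx21, but both lists had a peak within 1 kb of a gene end. The nearest WT peak was 3.06 kb from the KO-only peak at chr11:97112646-97112838. In Rptor (chr11:119602905-119899591), the Raptor subunit of mTORC1, the lists shared 3 peaks between 0.165 and 74.2 kb from the lower gene end, and the KO-only peaks stood apart at 253, 254 and 261 kb. The nearest WT peak was at least 49.9 kb away from them.

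Hdac4 (chr1:91928779-92195702) showed another arrangement, with 5 KO-only peaks along the whole gene among 12 shared ones, from 12.9 to 262 kb from the lower gene end. The gene also held 1 WT-only peak, earlier in the WT list and at 175 kb, and 2 KO and 2 WT peaks with a peak of the other list at 1 to 500 bp. Of the KO-only peaks, the peak at chr1:92102866-92103058 was 0.531 kb from that WT-only peak. Each of the others was 1.06 to 10.1 kb from its own nearest WT peak of any kind. In Fmnl2 (chr2:52857717-53134202) the 5 KO-only peaks stood between 37.5 and 128 kb from the lower gene end, together with 6 KO-only peaks earlier in the list or at the gene end. Its 3 WT-only peaks stood at 194, 231 and 264 kb, so the kinds occupied different parts of the gene. No peaks of the lists overlapped there, though 2 KO peaks, at 237 and 244 kb, had a WT peak within 500 bp.

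**Figure D2:**
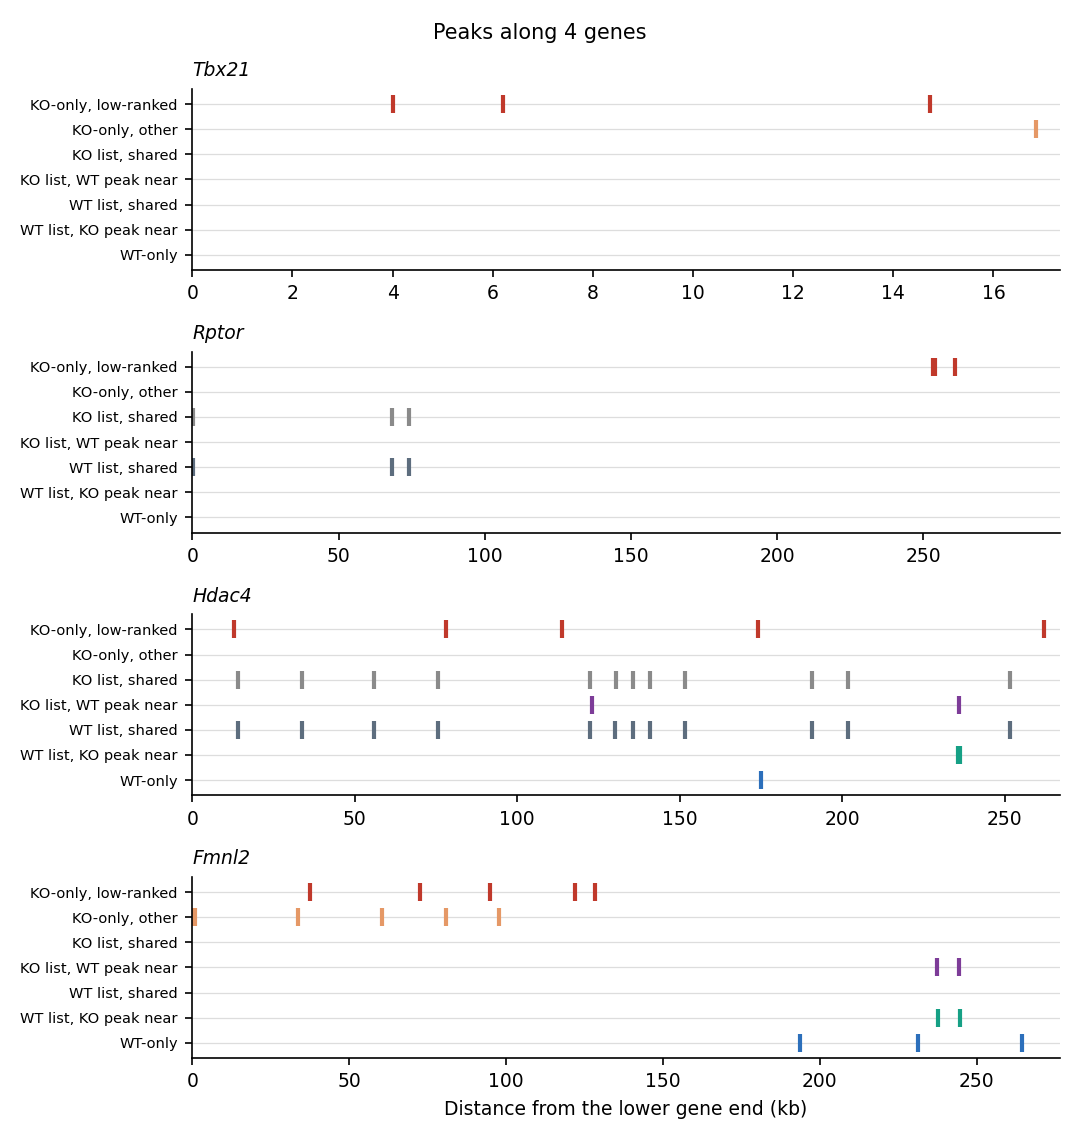
Midpoints of all peaks inside Tbx21, Rptor, Hdac4 and Fmnl2, as distance from the lower gene end in kb, with 1 row per kind of peak and KO rows above WT rows; "near" marks a peak of the other list at 1 to 500 bp. KO-only and WT-only peaks lie in separate parts of Fmnl2, and the low-ranked KO-only peaks of Hdac4 are spread along a gene with 12 shared ones.

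The targeted gene and genes that define Treg cells held up to 2 of these peaks each. Bcl11b itself held 1, at chr12:107964609-107964801, 6.68 kb from the nearest WT peak, and no low-ranked WT-only peak. It stood in row 18329, close to the rank limit, and KO-only minus WT-only peaks at Bcl11b were 0 with the last 40% or 60% of rows. Ikzf2, encoding Helios, held 2 KO-only peaks (chr1:69657120-69657312 and 69626304-69626496), 0 WT-only and 4 shared low-ranked ones. Il2ra, the IL-2 receptor alpha chain, held 1 KO-only peak, at chr2:11663955-11664147. Foxp3 and Ctla4 held 0 of either kind. Over the Treg signature list of 29 genes there were 5 KO-only and 2 WT-only peaks, at 4 and 2 genes, the other KO-only ones being 1 each in Ikzf4 and Entpd1. Their KO-only share was 71.4% (29.0 to 96.3%), against 38.1% over all genes, and per Mb of gene body they numbered 4.83, against 2.44. Low-ranked shared KO peaks were dense there too, with 16.4 per Mb against 4.95 over all genes. KO-only peaks numbered 7.53 per Mb over the naive and resting T cell list and 4.26 over that of T cell receptor signalling. These densities are not matched for gene length. Over the Treg list, KO-only minus WT-only peaks were 3, but 0 with the last 60% of rows and 1 with the last 40% or with lists of equal length.

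Gene lists of other programmes are given by the KO-only share of the low-ranked KO-only plus WT-only peaks inside their genes, which was 38.1% (36.9 to 39.3%) over all protein-coding genes. The mTOR, PI3K and metabolism list stood above it, with 14 KO-only and 6 WT-only peaks (70.0%, 45.7 to 88.1%). The interval takes peaks as independent, although the 3 KO-only peaks of Rptor spanned 7.54 kb. With lists of equal length, KO-only peaks were 44.7% of KO-only plus WT-only peaks inside all genes. The gene lists were chosen with earlier results of these data known. KO-only peaks were present at 9 of its 22 genes and outnumbered WT-only ones at 8, against 9.74% and 6.7% of all genes. WT-only peaks were present at 5 of the 22, against 13.8% of all genes. These shares over all genes are not matched for length. KO-only peaks were present at 1.25% of genes of 2 to 10 kb and at 17.3% of genes of 50 to 100 kb. Rptor had 3 and 0. Pik3cg, the catalytic subunit of phosphoinositide 3-kinase gamma, Pik3r1, a regulatory subunit of these kinases, and Pfkfb3, which raises glycolytic flux, had 2 and 0 each. Tsc1 and Tsc2, whose products together inhibit mTORC1, the phosphofructokinase gene Pfkp and the hexokinase gene Hk2 had 1 and 0 each. Low-ranked shared peaks numbered 6 over the list.

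Genes of T cell receptor signalling had a share below that over all genes, with 10 KO-only and 32 WT-only peaks over 30 genes (23.8%, 12.1 to 39.5%). That interval includes the 38.1% over all genes. KO-only peaks were present at 7 and WT-only peaks at 16 of the 30 genes, against 9.74% and 13.8% of all genes. Per Mb of gene body, and without matching for gene length, there were 4.26 KO-only peaks, against 2.44 over all genes. WT-only ones numbered 13.6 per Mb, against 3.97. KO-only peaks were the more numerous kind at 3 of the 30 genes, against 6.7% of all genes. These were Nfatc2 (2 and 0) and Nfatc3 (1 and 0), factors activated by calcium, and the NF-kB subunit gene Nfkb1 (2 and 1). The difference was 0 at Nfatc2 with the last 40% and at Nfkb1 with the last 60% of rows. WT-only peaks were the more numerous at 13, against 11.5% of all genes, among them Themis (0 and 6) and Ubash3b (0 and 5). Integrin and adhesion genes had 2 and 15 (11.8%, 1.46 to 36.4%), and both KO-only peaks lay in Itga4, the integrin alpha-4 chain. WT-only peaks were found at 10 of the 20 genes of that list, against 13.8% of all genes.

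The list of naive and resting T cells held 13 KO-only and 30 WT-only peaks (30.2%, 17.2 to 46.1%). Foxp1, which helps keep T cells at rest, had 4 and 10, and Bach2, a repressor of effector differentiation, had 1 and 8. Foxo1, a factor that keeps T cells quiescent, had 2 and 0, and the interleukin-6 receptor gene Il6ra had 2 and 2. T cell identity genes had 8 and 18 (30.8%, 14.3 to 51.8%), with 2 and 0 at the surface receptor gene Cd6 and 2 and 3 at Runx1. Chromatin regulators had 20 and 39 (33.9%, 22.1 to 47.4%), with 4 and 4 at Arid1b, a subunit of the BAF remodelling complex. They also held the wide span from Hdac4 to Hdac9 given above. The intervals of the lists in this paragraph include the 38.1% over all genes.

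The lists of effector programmes and of the other groups named next had shares of 25% to 50%. Their intervals were wide and included the 38.1% over all genes. Th1 genes had 7 and 7 (50%, 23.0 to 77.0%), with 3 and 0 at Tbx21, 0 and 2 at the interferon gamma gene Ifng, 1 and 2 at Stat4 and 0 and 1 at Il12rb2. Cytotoxic and NK cell genes had 6 and 6 (50%, 21.1 to 78.9%), a difference of -3 with the last 40% of rows. The NK cell list had 1 and 0 at each of the NK receptor genes Klrk1 and Klrd1 and at the chemokine gene Ccl4, and 0 and 1 at each of Klrb1c, Il2rb and Xcl1. Th2 genes had 3 and 4, and Th17 genes 4 and 9, of which 2 and 5 lay in Rora, the nuclear receptor ROR alpha. Formins, septins and actin regulators had 28 and 39 (41.8%), a difference of -11 that was -3 with lists of equal length and -6 on autosomes alone. The cAMP phosphodiesterase and adenosine genes had 14 and 18 (43.8%), with 4 and 3 at Pde4d, where the difference was 0 with the last 40% of rows, and 2 and 0 at Pde4a. IL-2, STAT and SOCS genes had 7 and 14, AP-1, BATF and IRF genes 3 and 9, and TGF-beta and Smad genes 5 and 11, of which 2 and 4 lay in Tgfbr3, a co-receptor of TGF-beta.

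Lists of other cell types held small numbers of peaks, and their shares have wide intervals. B cell genes had 5 and 3 (62.5%, 24.5 to 91.5%), a difference of 0 with the last 40% of rows, namely 3 and 0 at Blk, 2 and 0 at Pax5, the B lineage factor, 0 and 1 at Ebf1 and 0 and 2 at Bank1. Of the 18 myeloid genes, Fcgr3 (2 and 0) was the only one with a peak of either kind (100%, 15.8 to 100%), and both of its peaks lay within 1 kb of a WT peak. Per Mb of gene body the KO-only peaks numbered 4.84 over the B cell list and 6.49 over the myeloid one, against 2.44 over all genes. Low-ranked shared KO peaks numbered 5.80 and 3.24 per Mb over these lists, against 4.95 over all genes. No density here is matched for gene length. KO-only peaks numbered 3.56 per Mb in genes of 2 to 10 kb and 0.982 in genes over 400 kb. Non-lymphoid genes had 7 and 3 (70%, 34.8 to 93.3%) and 1.07 KO-only peaks per Mb, with 3 and 1 at Dlg2 and 2 and 0 at Grin2b, which encode synaptic proteins. Each of the Grin2b peaks had the other as its nearest KO peak, at 149 kb. Erythroid and megakaryocyte genes had 0 and 1 (0%, 0 to 97.5%) and housekeeping genes 0 and 3 (0%, 0 to 70.8%). Whether cells of other types were present in the sort was not tested, and peak lists give no level from which to measure it.

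**Figure D3:**
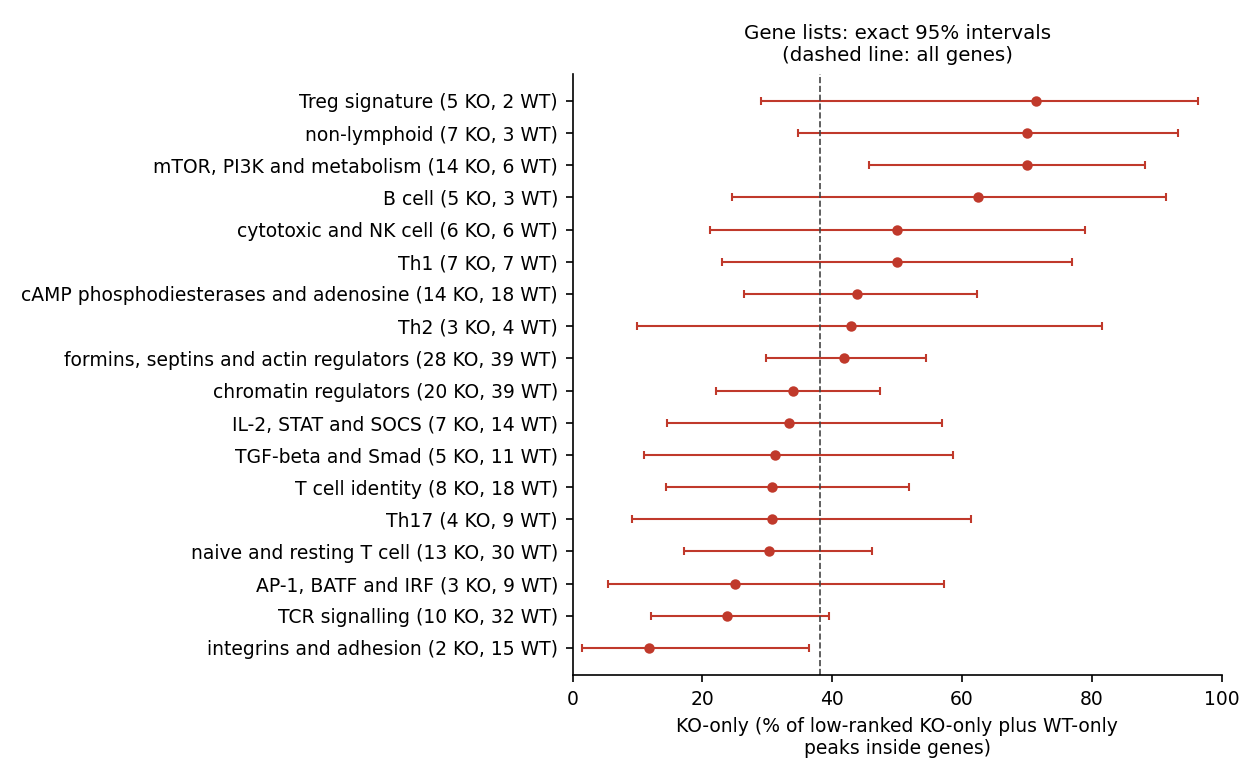
KO-only share, in %, of the low-ranked KO-only plus WT-only peaks inside the genes of each list with at least 5 such peaks; points are shares, bars exact 95% intervals, and the dashed line is the 38.1% over all protein-coding genes. The mTOR, PI3K and metabolism list lies above the line with its whole interval, and the integrin and adhesion list below it. The intervals take peaks as independent, which neighbouring peaks are not, and the lists were chosen with earlier results of these data known.

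The spacing to other sites was near that of shared peaks. The median distance to the nearest other KO peak was 9.95 kb, with quartiles of 4.93 and 24.5 kb, against 11.1 kb (5.63 and 23.3 kb) for low-ranked shared KO peaks inside genes and 3.36 kb (1.54 and 7.33 kb) for the 690 KO-only peaks inside genes that stand earlier in the list. The nearest KO peak was itself KO-only for 25.6% of the low-ranked KO-only peaks (23.8 to 27.3%) and for 17.7% of the shared ones (16.6 to 18.8%). Over the whole list, 6641 of the 36182 KO peaks were KO-only. In the WT list, the nearest WT peak was WT-only for 30.3% of the low-ranked WT-only peaks and 25.6% of the shared ones. Another KO peak lay within 2 kb of 13.6% of the KO-only and 12.01% of the shared KO peaks, with overlapping intervals. The distance to the nearest WT peak, which the rule bounds from below, had a median of 10.1 kb. It was under 2 kb for 14.5% of the KO-only peaks, while the distance to a KO peak was under 2 kb for 9.27% of the low-ranked WT-only peaks.

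The peaks were found all along their genes. Of the 1959 pairs of peak and host gene whose strand the promoter table gives, 17.97%, 21.4%, 20.7%, 21.3% and 18.6% fell in 5 successive equal parts of the gene from its start, where the rule itself leaves out the outermost 1 kb. Earlier-ranked KO-only peaks inside genes had 29.9% in the part nearest the start (26.0 to 33.9%). The table used here has no exons, so exonic and intronic peaks were not told apart.

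The state of the gene ends differed between hosts of KO-only and of WT-only peaks, which have 694 genes in common. A peak within 1 kb of a gene end, which plays no part in the choice of the set, was present in both lists at 56.5% of the 1880 host genes (54.3 to 58.8%), at 62.1% of the 2665 genes with low-ranked WT-only peaks (60.3 to 64.0%), at 59.6% of the 3334 genes with low-ranked shared KO peaks (57.9 to 61.3%) and at 52.3% of all genes over 2 kb. In neither list was there such a peak at 36.3%, 31.9%, 34.0% and 43.2% of them. Among genes with KO-only and no WT-only peaks the last share was 40.6% (37.8 to 43.5%, 1186 genes), and among genes with WT-only and no KO-only peaks 32.9% (30.9 to 35.1%, 1971 genes).

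The same order held in each of 3 classes of gene length. The shares without a gene-end peak were 38.8% and 33.5% for genes of 2 to 50 kb, 38.2% and 28.4% for genes of 50 to 200 kb, and 57.8% and 48.5% for longer ones, with intervals that overlap in the first and last of these classes. A gene-end peak in the KO list alone was found at 64 host genes (3.404%, 2.63 to 4.33%) and in the WT list alone at 70 (3.72%, 2.91 to 4.68%). For genes with WT-only peaks these were 55 (2.06%) and 104 (3.90%).

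The host genes had a median length of 93.7 kb, counted over peaks, against 89.2 kb for low-ranked shared KO peaks and 104 kb for low-ranked WT-only peaks. Relative to WT-only peaks, the KO-only share was 44.2% in genes of 10 to 25 kb (40.1 to 48.3%) and 35.4% in genes of 100 to 200 kb (33.0 to 37.9%). Relative to shared KO peaks it was 33.1% and 31.5% in the same classes, and 35.7% (32.9 to 38.5%) and 36.2% (32.6 to 39.98%) in genes of 200 to 400 kb and over 400 kb, so the order by length was not the same against both kinds. Per Mb of gene body the KO-only peaks numbered 3.56 in genes of 2 to 10 kb and 0.982 in genes over 400 kb, against 7.17 and 1.73 for shared KO peaks.

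Chromosomes differed in the KO-only share of the low-ranked KO-only plus WT-only peaks inside genes. It was 50.9% on chromosome 19 (89 against 86 peaks, 43.2 to 58.5%) and 47.5% on chromosome 11 (193 against 213, 42.6 to 52.5%), and 28.9% on chromosome 10 (101 against 249, 24.2 to 33.9%). Within the KO list, these peaks made up 40.1% of the low-ranked peaks inside genes on chromosome 19, 38.0% on chromosome 11 and 23.9% on chromosome 10, against 30.7% over all. On the X chromosome 28 KO-only peaks stood against 141 WT-only ones (16.6%, 11.3 to 23.0%), against 38.8% on the autosomes. KO-only peaks made up 21.5% of the low-ranked KO peaks inside genes there. WT-only peaks made up 64.4% of the low-ranked WT peaks inside genes on X, against 44.7% over all. The sex of the mice is not given, so whether it differed between the groups was not tested. Chromosomes were chosen for mention by their values.

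**Figure D4:**
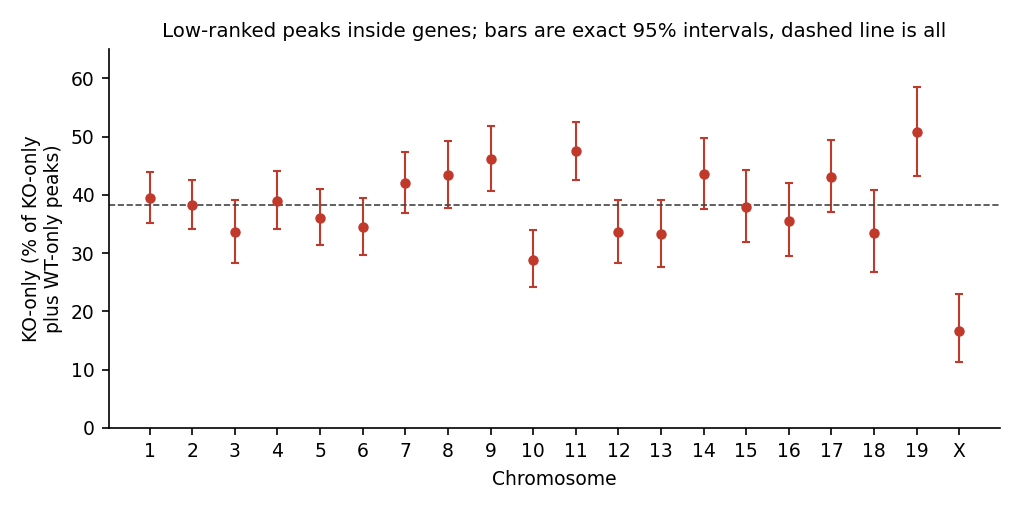
KO-only share, in %, of the low-ranked KO-only plus WT-only peaks inside genes, by chromosome; points are shares, bars exact 95% intervals, and the dashed line is the 38.3% over all peaks. Chromosome X has the lowest share, at 16.6%, and chromosome 19 the highest, at 50.9%. The sex of the mice in either group is not given.

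The share of peaks inside genes that were KO-only differed along the list, which describes values that the rule used. It was 21.7% in rows 50 to 60% of the KO list (19.7 to 23.8%), 20.4% in rows 60 to 70%, 28.1% in rows 70 to 80%, 37.0% in rows 80 to 90% and 46.8% in the last 10% (44.3 to 49.3%). WT-only peaks made up 22.7%, 31.2%, 43.7%, 57.5% and 66.3% of the peaks inside genes in the same parts of the WT list. Over the last 50% of rows the shares were 30.7% (2445 of 7969, 29.7 to 31.7%) for KO and 44.7% (3947 of 8829, 43.7 to 45.7%) for WT, while a further 594 KO peaks had a WT peak at 1 to 500 bp and 4930 overlapped one. The WT list holds 38258 peaks. When its last rows were dropped so that both lists were equally long, the KO-only peaks were 44.7% of KO-only plus WT-only peaks inside genes, against 38.3% with the whole lists.

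**Figure D5:**
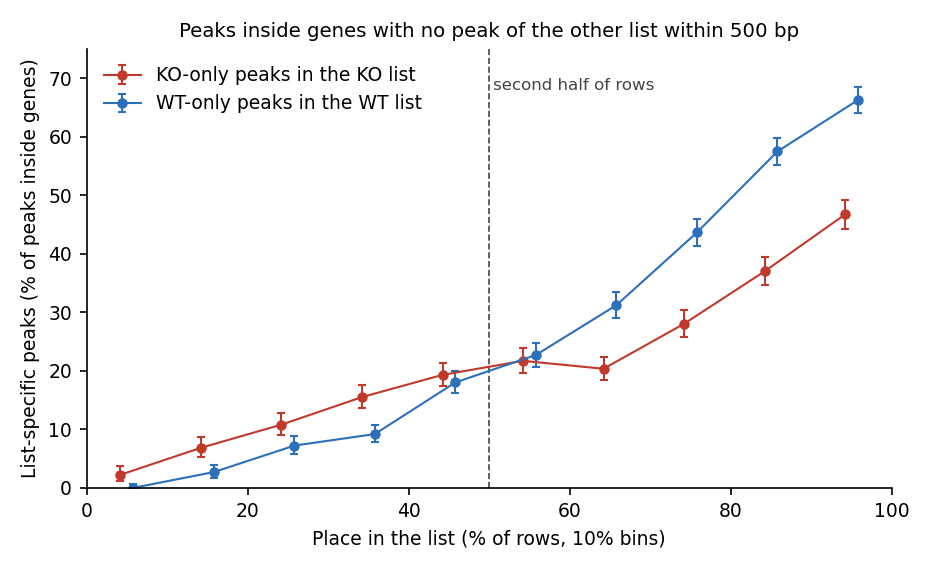
Share of peaks inside genes that have no peak of the other list within 500 bp, in %, for each 10% of rows, in the KO list (red) and the WT list (blue); bars are exact 95% intervals and the dashed line marks where the last 50% of rows begins. In the last 10% of rows the share is 46.8% in the KO list and 66.3% in the WT list.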

How the data were processed

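ATAC-seq peaks of 3 KO and 3 WT samples were used. Per the submitters' processing notes, the tools were HISAT2 2.1.0, HOMER 4.10.1, SAMtools 1.3, deepTools, cutadapt 1.12, Trim Galore 0.4.2 and FastQC, on mm10. Which tool did what, the threshold for calling, any shift of reads and how replicates were combined were not given in the sources used here. The score that the authors deposited is 1 in every row, and depth per sample is unknown.

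Distances, host genes and counts were computed with pandas 2.3.3, scipy 1.17.1 and numpy 2.4.6 in Python 3.11.15, and drawn with matplotlib 3.10.9. The distance and host gene code, tested on simulated data of 800 peaks per list and 200 genes, gave 0 differences from bedtools 2.31.1. Genes, start windows and miRNAs came from RefSeq tables of GRCm38.p6. No genome sequence was used, so the planned search of peak sequences was replaced by one of the start windows, chosen after the files were seen. The 95% intervals of shares are exact (Clopper-Pearson) and reflect counting error alone. Neighbouring peaks are not independent.

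The set and the 21 gene lists (397 genes) were chosen with earlier results of these data known. Genes named are Bcl11b, Foxp3, Il2ra, Ctla4 and Ikzf2, the 15 with most KO-only peaks, up to 2 per list, and those at the limits of the rule. Others were chosen after their values were seen, and some genes are not reported here. Alternatives changed the 500 bp gap, the rank limit, the gene-end limit, the placement, the length of the WT list and the chromosomes.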

Additional observations from a re-analysis of the deposited data

How the results depend on the processing

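Peak lists per group allow no test across replicates, no setting that leaves out a sample and no statement on depth. No paired analysis was possible because each group has 1 list for all its samples. The planned search of whole peaks for motifs was not run.

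The number of KO-only peaks in the set ranged from 2106 to 3039, that of WT-only peaks from 3374 to 4452 and that of host genes from 1695 to 2240. The KO-only share of low-ranked KO peaks inside genes was 38.1% without the 500 bp gap, 28.7% with 1000 bp, 32.9% and 28.9% with the last 40% and 60% of rows, and 34.2% with the shortened WT list. The share of KO-only plus WT-only peaks was 40.6% without the gap and 44.7% with the shortened list, where it was 24.0% on the X chromosome. Gene-end limits of 2 kb and 500 bp gave 63.6% and 49.2% of host genes with an end peak in both lists. Median host length was 99.8 kb with 2 kb. The median distance to a KO peak was 10.6 kb with the 1000 bp gap, 11.1 kb with the last 40% and 9.04 kb with the last 60% of rows. By construction, each of these settings changes which peaks are counted.

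KO-only minus WT-only peaks over the mTOR, PI3K and metabolism list stayed between 7 and 9 in all settings, that over T cell receptor signalling between -23 and -21, and that over integrins between -14 and -8. Signs turned at Itpr1 (-1, last 40% of rows) and at the erythroid list (1, shortened WT list); the cause was not tested. Over the formin, septin and actin list, -11 became -3 with the shortened WT list and -6 on autosomes alone, and over the cAMP list -4 became -2 with the shortened one. Of 410 values for single genes 385, and of 210 values for lists 197, kept their sign.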
